A study of Mus musculus with 6 samples.

Results

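The 36 genes described here encode the contractile apparatus of skeletal muscle, namely sarcomere motors and scaffolds, the calcium release machinery of the fibre, and muscle proteins of oxygen storage and energy supply. They were taken as the rows of the deposited expression table that carry the symbols of a list of such genes, and all 36 were found, each in 1 row, among 24016 genes. The tissue was brown adipose tissue of C57BL6 mice of the AdIl17rc KO genotype (3 libraries) and of the WT genotype (3 libraries). Of the knockout the series title says that it concerns IL-17RC of adipocytes. The sources used here name neither the promoter behind the deletion nor the age and sex of the mice. Each library was made from polyA RNA, and its values were read as FPKM, fragments per kilobase of transcript scaled to the mapped fragments of the library, so levels of different genes can be compared per length. No label says which library came from which animal, so the p-values below rest on the spread between these libraries, part of it borrowed from other genes.

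Skeletal muscle shortens when myosin heads of the thick filament pull on actin of the thin filament, which the troponin complex permits once calcium has been released from the sarcoplasmic reticulum. Fast and slow fibres carry different genes for myosin heavy chain, myosin light chain and each troponin subunit, and these isoforms serve as markers of the fibre types. Brown adipocytes share a developmental lineage with skeletal muscle and express some genes of muscle metabolism, but fibre-specific sarcomere genes are usual markers of muscle tissue, and brown fat depots lie next to muscle in the mouse.

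All 36 genes were higher in AdIl17rc KO libraries 1 and 2 than in any of the other 4 libraries. Their summed level was 482, 788 and 56.0 FPKM in AdIl17rc KO libraries 1, 2 and 3, against 57.1, 65.1 and 105 FPKM in WT libraries 1, 2 and 3. In this sum the third knockout library lay near WT libraries 1 and 2, and the 2 genotypes overlapped for every gene. Much of the sum in these 3 libraries was Myl1, Mb and Des, and groups of genes differed. Calcium handling genes summed to 0.341 FPKM in AdIl17rc KO library 3, above the 0.106 and 0.0511 FPKM of WT libraries 1 and 2. Troponin genes summed to 0.538 FPKM there, below the 0.964 and 0.741 FPKM of WT libraries 1 and 2. Only 173 of the 10864 genes with a mean of at least 0.5 FPKM, 1.59%, had both of these knockout libraries above the other 4, and they included all 30 of the muscle genes that reached that mean. Some of the 30 reached it only through these 2 libraries, such as Ryr1, which had no more than 0.192 FPKM in the other 4. The count of 30 is therefore a description only. WT library 3 came next, and was the third highest for 28 of the 36. In whole tissue, fewer muscle cells and less RNA per muscle cell cannot be told apart, and the amount of muscle in each piece of fat was not measured.

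**Figure D1:**
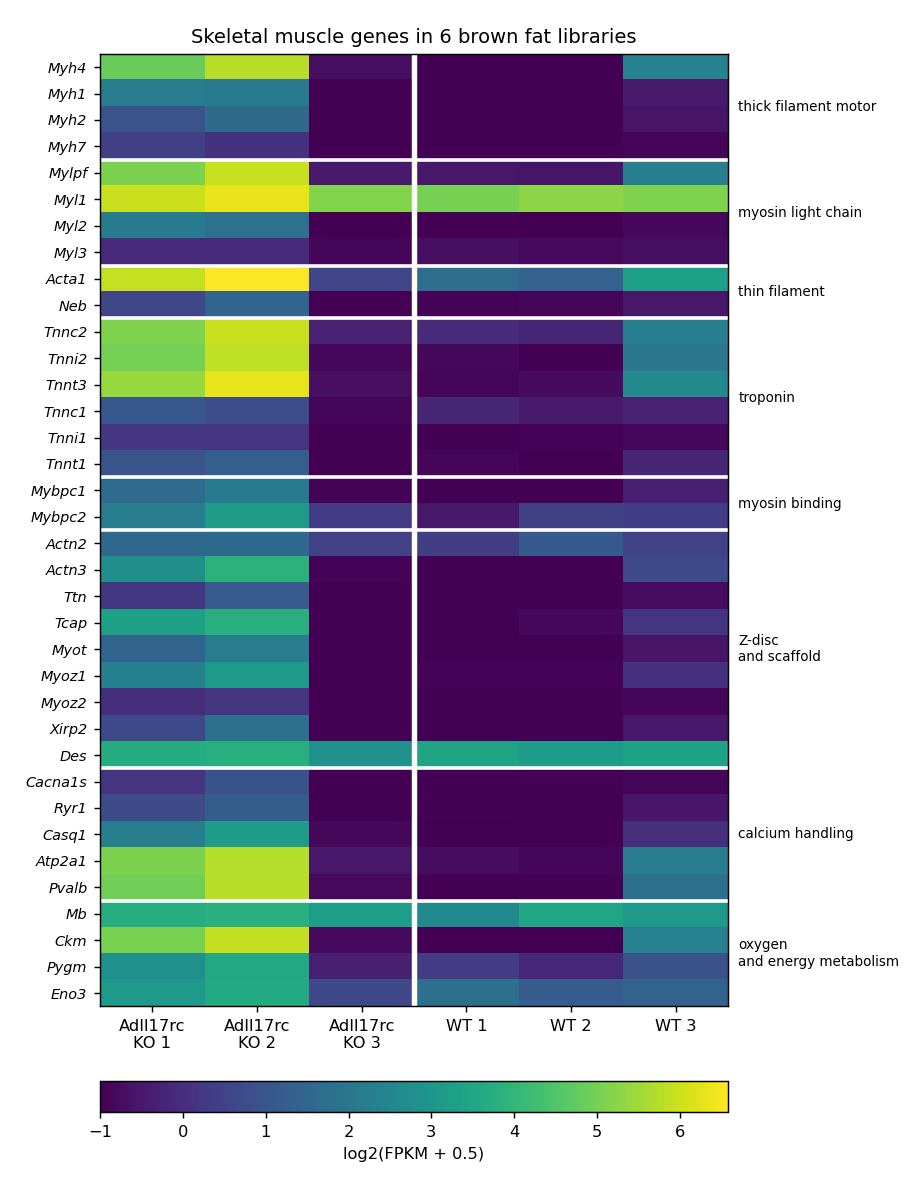
Level of each of the 36 muscle genes (rows, grouped by role) in the 3 AdIl17rc KO libraries and the 3 WT libraries (columns), as log2(FPKM + 0.5). AdIl17rc KO libraries 1 and 2 are the brightest columns, WT library 3 is intermediate, and Myl1, Des and Mb keep a level in all 6 libraries.

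The targeted gene, Ucp1 and Adipoq did not follow that order of libraries. Il17rc stood at 1.32, 0.619 and 0.530 FPKM in AdIl17rc KO libraries and at 3.21, 2.28 and 2.02 FPKM in WT libraries, lower in every knockout library. Ucp1, the uncoupling protein of brown fat heat production, was 2979, 2657 and 2534 FPKM in AdIl17rc KO libraries, against 2577, 2214 and 1976 FPKM in WT libraries. Ucp1 was highest in AdIl17rc KO libraries 1 and 2 as well, but WT library 3 was its lowest and the 6 values spanned less than 2-fold. Adipoq, an adipocyte hormone, was 663, 554 and 568 FPKM in AdIl17rc KO libraries, against 561, 601 and 631 FPKM in WT libraries. From the smallest values and the transcript lengths, each library was estimated to hold between 30.5 and 36.0 megafragments (1 megafragment is 1000000 fragments). The estimate kept only products of value and length inside a preset window, which bounds its outcome. It is therefore rough, as are the fragment numbers below that rest on it. In AdIl17rc KO library 2, 1 microRNA row, Mir6236, held 146487 of the summed 383558 FPKM. FPKM are scaled to mapped fragments and not to that sum, and the effect of this row on the other values was not tested.

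The heavy chain of myosin is the motor of the thick filament, and its isoforms define the fibre types. Myh4, the heavy chain of the fastest fibres, was 28.0, 54.4 and 0.104 FPKM in AdIl17rc KO libraries, against 0.00468, 0.00402 and 4.62 FPKM in WT libraries. In WT libraries 1 and 2 that level amounts to an estimated 0.899 and 0.871 fragments, so the gene was at the edge of detection there. Myh1, of fast intermediate fibres, was 4.14, 3.87 and 0.00570 FPKM in AdIl17rc KO libraries, against 0, 0 and 0.224 FPKM in WT libraries. Myh2, of fast oxidative fibres, was 1.42, 2.54 and 0.00141 FPKM in AdIl17rc KO libraries, against 0, 0.00399 and 0.166 FPKM in WT libraries. Each of these fast chains was more than 3-fold higher in AdIl17rc KO libraries 1 and 2 than in any other library. Myh7, the chain of slow fibres and of the heart, was 0.840, 0.576 and 0 FPKM in AdIl17rc KO libraries, against 0, 0 and 0.0451 FPKM in WT libraries. Myh4 made up 81.4% and 88.6% of the summed heavy chain level in AdIl17rc KO libraries 1 and 2, and 91.4% in WT library 3. The heavy chain genes share sequence: 18.9% of the 50-base stretches of Myh4, 26.7% of those of Myh1 and 26.9% of those of Myh2 also occur in another gene's transcript, so part of the reads could have been split among such genes. Of Myh7, 22.2% also occur in Myh6, the heart's other heavy chain.

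**Figure D2:**
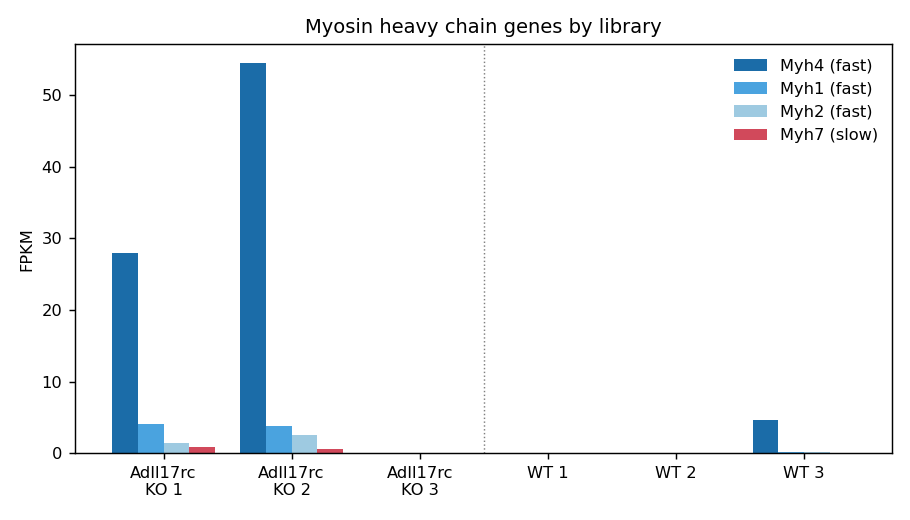
FPKM (linear axis) of the 3 fast and 1 slow myosin heavy chain genes in each AdIl17rc KO and WT library, 1 bar per gene and library. Myh4 is the tallest bar wherever heavy chain is seen, at 28.0 and 54.4 FPKM in AdIl17rc KO libraries 1 and 2 and 4.62 FPKM in WT library 3.

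The bases just upstream of 4 of these genes are shown for the fast chain Myh4, the slow chain Myh7, skeletal actin Acta1, the gene with the highest level in AdIl17rc KO library 2, and the light chain Myl1, which kept a level in every library. They are the 250 bases before the transcription start in the RefSeq annotation of GRCm38.p6, printed 5′ to 3′ on the strand of the gene, with the motifs named below in capitals.
Myh4, chr11:67237562-67237811, plus strand: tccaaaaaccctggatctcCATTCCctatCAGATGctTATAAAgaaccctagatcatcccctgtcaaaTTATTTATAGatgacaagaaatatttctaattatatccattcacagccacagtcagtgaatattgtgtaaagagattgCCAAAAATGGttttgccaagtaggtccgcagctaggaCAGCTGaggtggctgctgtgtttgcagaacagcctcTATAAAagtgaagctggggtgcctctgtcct
Myh7, chr14:54994627-54994876, minus strand: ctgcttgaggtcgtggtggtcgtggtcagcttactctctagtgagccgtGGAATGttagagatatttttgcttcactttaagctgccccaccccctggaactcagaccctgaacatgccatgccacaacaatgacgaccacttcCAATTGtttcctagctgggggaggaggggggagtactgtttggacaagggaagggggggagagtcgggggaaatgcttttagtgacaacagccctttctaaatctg
Acta1, chr8:123894776-123895025, minus strand: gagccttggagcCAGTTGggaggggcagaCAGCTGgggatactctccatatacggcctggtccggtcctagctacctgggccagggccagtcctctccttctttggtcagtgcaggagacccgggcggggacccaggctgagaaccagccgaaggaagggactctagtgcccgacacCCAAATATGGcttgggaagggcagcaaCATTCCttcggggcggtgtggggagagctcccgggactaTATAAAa
Myl1, chr1:66945057-66945306, minus strand: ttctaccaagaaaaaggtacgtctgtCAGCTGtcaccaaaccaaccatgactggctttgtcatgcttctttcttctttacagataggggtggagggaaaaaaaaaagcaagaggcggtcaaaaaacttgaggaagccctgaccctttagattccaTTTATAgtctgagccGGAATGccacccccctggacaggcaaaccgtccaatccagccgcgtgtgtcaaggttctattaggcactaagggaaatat
The motifs were searched on both strands, and are the E-box CANNTG bound by MyoD-type factors, the MCAT motif CATTCC, the TATA-type motif TATAAA, the MEF2 motif, and the CArG motif bound by serum response factor. Myh4 held E-boxes 221 and 67 bases upstream, a CArG motif 104 bases upstream and a MEF2 motif 182 bases upstream that overlaps 1 of its 3 TATAAA matches. The Acta1 sequence held a CArG motif 73 bases upstream and 2 E-boxes, and the Myl1 and Myh7 sequences held 1 E-box and 1 MCAT motif each. Among the 29 muscle genes with an entry in the table, an E-box was found in 25 (86.2%), against 66.0% of all 27025 promoters of that length. An MCAT motif was found in 10 of the 29, against 12.6% of all promoters. MEF2 motifs were found in 6 of the 29, against 3.01% of all promoters, in Myh4, Myh1, Ttn, Myoz2, Xirp2 and Pvalb. A CArG motif was found in 3 of the 29, against 1.40% of all promoters, in Myh4, Acta1 and Myl3. TATAAA was found in 5 of the 29, against 13.0% of all promoters. The remaining genes are Neb, Tnni2, Tnnt3, Actn3, Tcap, Myot and Myoz1. A match of letters is a description and not a bound site.

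Myosin light chains stiffen and tune the neck of the motor. Mylpf, the regulatory light chain of fast fibres, was 33.1, 60.8 and 0.227 FPKM in AdIl17rc KO libraries, against 0.199, 0.171 and 4.27 FPKM in WT libraries. Myl1, the essential light chain of fast fibres, was 62.0, 78.4 and 35.1 FPKM in AdIl17rc KO libraries, against 32.2, 38.0 and 34.0 FPKM in WT libraries. Myl1 thus had a level of over 30 FPKM also where the other fast genes were near 0, and 23.4% of its 50-base stretches occur in the pseudogene Mylf-ps, so reads of the 2 may be mixed. AdIl17rc KO libraries 1 and 2 exceeded library 3 by 26.9 and 43.4 FPKM for Myl1, a ratio of 0.621, against 0.543 for Mylpf. Myl2, the slow regulatory chain shared with the heart, was 3.95, 3.08 and 0 FPKM in AdIl17rc KO libraries, against 0, 0 and 0.0590 FPKM in WT libraries. Myl3, its slow essential partner, was 0.461, 0.435 and 0.0360 FPKM in AdIl17rc KO libraries, against 0.118, 0.0679 and 0.109 FPKM in WT libraries. Both slow light chains were higher in AdIl17rc KO library 1 than in library 2, and both fast light chains were lower.

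The thin filament is a polymer of actin that nebulin runs along. Acta1, skeletal alpha-actin, was 59.7, 95.1 and 0.992 FPKM in AdIl17rc KO libraries (51.9 ± 47.5, SD, n = 3), against 2.75, 2.10 and 9.16 FPKM in WT libraries (4.67 ± 3.90, SD, n = 3). AdIl17rc KO library 3 was the lowest of all 6 for Acta1, so the knockout group held both ends of its range. Neb, the giant ruler protein of the thin filament, was 1.03, 2.26 and 0.0112 FPKM in AdIl17rc KO libraries, against 0.0294, 0.0369 and 0.209 FPKM in WT libraries.

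Troponin holds the thin filament off until calcium binds its C subunit, and each subunit has a fast and a slow gene. Tnnt3, the fast tropomyosin-binding subunit, was 42.3, 78.0 and 0.126 FPKM in AdIl17rc KO libraries, against 0.0346, 0.0892 and 5.42 FPKM in WT libraries. Tnni2, the fast inhibitory subunit, was 31.4, 56.8 and 0.0541 FPKM in AdIl17rc KO libraries, against 0.0594, 0 and 3.55 FPKM in WT libraries. Tnnc2, the fast calcium sensor, was 34.1, 61.0 and 0.308 FPKM in AdIl17rc KO libraries, against 0.450, 0.387 and 4.25 FPKM in WT libraries. All 3 fast genes were highest in AdIl17rc KO library 2, then in AdIl17rc KO library 1 and then in WT library 3. Of the Tnnc2 exon bases, 74.0% lie under exons of Ube2c on the other strand, at 0.528 to 1.28 FPKM in the 6 libraries, and the strand setting of the counting is not given. Tnnt1, the slow counterpart of Tnnt3, was 1.45, 1.93 and 0 FPKM in AdIl17rc KO libraries, against 0.0347, 0 and 0.383 FPKM in WT libraries. Tnni1, the slow inhibitory gene, was 0.660, 0.591 and 0 FPKM in AdIl17rc KO libraries, against 0, 0.0282 and 0.0605 FPKM in WT libraries. Tnnc1, the calcium sensor of slow fibres and heart, was 1.58, 1.27 and 0.0501 FPKM in AdIl17rc KO libraries, against 0.385, 0.236 and 0.304 FPKM in WT libraries. The slow gene made up 3.31% and 2.41% of the T subunit pair in AdIl17rc KO libraries 1 and 2, and 6.60% in WT library 3. For the I pair the slow share was 2.06% and 1.03% in AdIl17rc KO libraries 1 and 2, and 1.67% in WT library 3. The C pair stood at 4.43% and 2.03% in AdIl17rc KO libraries 1 and 2, and 6.68% in WT library 3. The fast gene was thus the higher of each pair in these 3 libraries, and the slow share was higher in AdIl17rc KO library 1 than in library 2 for all 3 pairs.

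Myosin-binding protein C braces the thick filament. Mybpc2, its fast form, was 4.07, 8.45 and 0.735 FPKM in AdIl17rc KO libraries, against 0.200, 0.851 and 0.802 FPKM in WT libraries. Mybpc1, its slow-type form that fast fibres carry as well, was 2.64, 3.95 and 0.0267 FPKM in AdIl17rc KO libraries, against 0, 0 and 0.291 FPKM in WT libraries. Mybpc2 had a value above 0 in every library, the lowest being 0.200 FPKM, whereas Mybpc1 was near 0 outside AdIl17rc KO libraries 1 and 2 and WT library 3.

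Z-disc and scaffold proteins anchor thin filaments and hold the sarcomere in register. Actn3, the alpha-actinin of fast fibres, was 6.38, 14.0 and 0.0278 FPKM in AdIl17rc KO libraries, against 0, 0 and 1.08 FPKM in WT libraries. Actn2, the alpha-actinin of all fibres and the heart, was 2.48, 2.53 and 0.904 FPKM in AdIl17rc KO libraries, against 0.816, 1.70 and 0.901 FPKM in WT libraries. In AdIl17rc KO library 3 and WT libraries 1 and 2, Actn3 was thus at or near 0 while Actn2 kept a level of 0.816 FPKM or more. Tcap, the cap of titin at the Z-disc, was 9.47, 13.0 and 0 FPKM in AdIl17rc KO libraries, against 0, 0.0633 and 0.611 FPKM in WT libraries. Myoz1, a calcineurin-binding Z-disc protein of fast fibres, was 4.37, 7.89 and 0 FPKM in AdIl17rc KO libraries, against 0.0251, 0.0216 and 0.555 FPKM in WT libraries. Its slow counterpart Myoz2 was 0.490, 0.636 and 0 FPKM in AdIl17rc KO libraries, against 0, 0 and 0.0532 FPKM in WT libraries. Neither Tcap nor either Myoz gene had a value above 0 in AdIl17rc KO library 3. Myot, an actin bundler of the Z-disc, was 2.22, 4.13 and 0 FPKM in AdIl17rc KO libraries, against 0, 0 and 0.163 FPKM in WT libraries. Xirp2, an actin-binding repeat protein of muscle attachment sites, was 1.11, 2.99 and 0.00635 FPKM in AdIl17rc KO libraries, against 0, 0 and 0.199 FPKM in WT libraries. Ttn, the elastic giant titin, was 0.683, 1.74 and 0.00365 FPKM in AdIl17rc KO libraries, against 0.00134, 0.00115 and 0.101 FPKM in WT libraries. Xirp2 and Ttn had the lowest ratios of AdIl17rc KO library 1 to library 2, at 0.371 and 0.393. Des, the intermediate filament desmin, which smooth muscle and pericytes also make, was 12.4, 12.8 and 6.68 FPKM in AdIl17rc KO libraries, against 10.3, 8.45 and 9.89 FPKM in WT libraries. Its 6 values spanned less than 2-fold, with no gap between the groups. Rgs5, a pericyte gene outside the set, was 47.5, 38.5 and 30.6 FPKM in AdIl17rc KO libraries, against 58.5, 52.9 and 57.3 FPKM in WT libraries.

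Calcium release and return set the pace of contraction. Atp2a1, the calcium pump of the fast sarcoplasmic reticulum, was 33.7, 52.3 and 0.200 FPKM in AdIl17rc KO libraries, against 0.0929, 0.0363 and 4.16 FPKM in WT libraries. Pvalb, the calcium buffer parvalbumin of fast fibres, was 30.3, 55.4 and 0.0726 FPKM in AdIl17rc KO libraries, against 0, 0 and 2.97 FPKM in WT libraries. Casq1, the fast calcium store calsequestrin, was 4.19, 8.43 and 0.0597 FPKM in AdIl17rc KO libraries, against 0, 0 and 0.528 FPKM in WT libraries. All 3 had no more than 0.200 FPKM in AdIl17rc KO library 3 and in WT libraries 1 and 2. Ryr1, the release channel, was 1.14, 1.87 and 0.00492 FPKM in AdIl17rc KO libraries, against 0.0126, 0.00310 and 0.192 FPKM in WT libraries. Cacna1s, the voltage sensor that opens it, was 0.633, 1.36 and 0.00415 FPKM in AdIl17rc KO libraries, against 0, 0.0118 and 0.0499 FPKM in WT libraries. Channel and sensor were thus far below the pump and the buffer in FPKM, and high in the same libraries.

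Genes of oxygen storage and energy supply split into a muscle pattern and a base level. Ckm, the creatine kinase of muscle, was 32.8, 59.0 and 0.0823 FPKM in AdIl17rc KO libraries, against 0, 0 and 4.45 FPKM in WT libraries. Pygm, muscle glycogen phosphorylase, was 6.46, 11.3 and 0.292 FPKM in AdIl17rc KO libraries, against 0.740, 0.418 and 1.36 FPKM in WT libraries. Eno3, the muscle enolase of glycolysis, was 8.07, 11.8 and 1.07 FPKM in AdIl17rc KO libraries, against 2.99, 1.81 and 2.17 FPKM in WT libraries. Pygm and Eno3, like Acta1, were lowest of all in AdIl17rc KO library 3. Mb, myoglobin, which brown adipocytes make as well, was 12.7, 13.7 and 8.84 FPKM in AdIl17rc KO libraries, against 5.69, 10.6 and 8.11 FPKM in WT libraries. Mb held the narrowest range of this group, and 27.6% of its exon bases lie under Gm49540 and 4.29% under Apol6, both on the other strand.

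With Myl1, Mb and Des set aside, the summed level of the other 33 genes was 395, 683 and 5.41 FPKM in AdIl17rc KO libraries, against 8.95, 8.04 and 53.5 FPKM in WT libraries. As a share of each library's summed FPKM, all 36 made up 0.158%, 0.206% and 0.0214% in AdIl17rc KO libraries, against 0.0159%, 0.0230% and 0.0372% in WT libraries. With Mir6236 left out of the sum, the shares were 0.169%, 0.332% and 0.0225% in AdIl17rc KO libraries, against 0.0167%, 0.0239% and 0.0382% in WT libraries. No gene of the 36 was listed at 0 in AdIl17rc KO libraries 1 and 2 or in WT library 3, while 8 were at 0 in AdIl17rc KO library 3, and 15 and 13 in WT libraries 1 and 2. AdIl17rc KO library 3 alone was the lowest for 8 of the 30 tested muscle genes, a share of 26.7%, against 43.4% of all genes tested. Genes at 0 there and in another library cannot be lowest alone, so ties at 0 lower that share. The median SD of the tested muscle genes on the log2 scale was 1.78 within AdIl17rc KO and 0.480 within WT, against 0.192 within AdIl17rc KO and 0.221 within WT over all genes tested. Among the 100 genes with the largest SD within AdIl17rc KO, 24 were of this set.

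Fast and slow genes did not keep the same proportion between AdIl17rc KO libraries 1 and 2. For the 14 genes typical of fast fibres, the level in library 1 was a median 0.550 of that in library 2, with 13 of the 14 below 1 and only Myh1 above it, at 1.07. For the 7 genes typical of slow fibres the median ratio was 1.12, with 5 of the 7 above 1 and Tnnt1 and Myoz2 below it, at 0.751 and 0.772. For the 15 genes of both fibre types the median ratio was 0.612, all below 1, and over all genes tested it was 1.18, with 78.1% above 1. The 5 of 7 slow genes above 1 are thus near the share of all genes, whereas the 1 of 14 fast genes and the 0 of 15 genes of both types are below it. Less AdIl17rc KO library 3, the ratio lay between 0.4 and 0.7 for 13 of the 14 fast genes, the base level of Myl1 being removed by that subtraction. Summed over the fast and over the slow genes, the ratio of fast to slow level was 33.9 in AdIl17rc KO library 1 and 63.7 in library 2, and 65.7 in WT library 3. In the libraries with the slow genes near 0 it was 429 in AdIl17rc KO library 3, and 61.7 and 119 in WT libraries 1 and 2. Without Myl1, whose base level was much of the fast sum there, the ratio was 27.3 and 54.5 in AdIl17rc KO libraries 1 and 2, and 32.1 in WT library 3. It was then 22.3 in AdIl17rc KO library 3, and 1.98 and 4.70 in WT libraries 1 and 2, where the slow genes were near 0. In WT library 3 the slow sum of 1.01 FPKM rests on few reads, with an estimated 9.67 fragments of Myh7 and 1.80 of Myl2. These ratios compare single libraries, with no replicate check. For 13 of the 14 fast genes WT library 3 had between 5% and 10% of the level of AdIl17rc KO library 2.

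**Figure D3:**
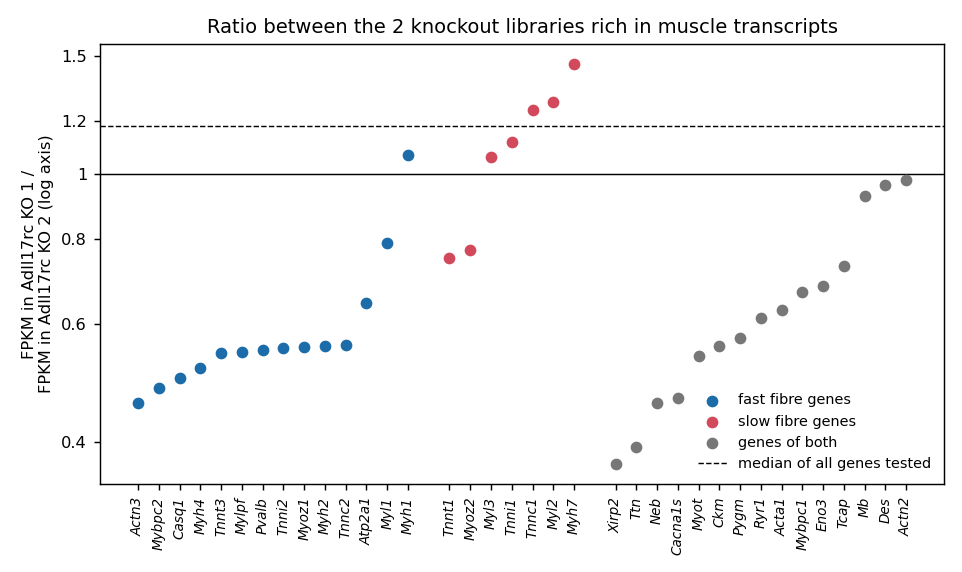
FPKM in AdIl17rc KO library 1 divided by FPKM in AdIl17rc KO library 2 (log axis) for each muscle gene, in the order fast, slow and both fibre types. The solid line marks a ratio of 1 and the broken line the median of all genes tested, 1.18. Most fast genes sit near 0.550, and 5 of 7 slow genes sit above 1, as do 78.1% of all genes tested.

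Comparing the genotypes, no muscle gene passed the test. Limma on log2(FPKM + 0.5), with Benjamini-Hochberg adjustment over the 10864 genes, called 0 of the 30 tested muscle genes higher in AdIl17rc KO and 0 lower at an adjusted p of 0.05. Over all genes it called 1 higher and 1 lower, 0.0092% each. The test pools SD across genes, which lowered the median SD of the 30 on the log2 scale from 1.27 to 0.884. Their standard errors are thus smaller than their own spread gives. At an unadjusted p under 0.05, 12 of the 30 were higher in AdIl17rc KO, against a background of 1.01%, and 0 were lower, against 24.8%. With median-of-ratios scaling it was 7 of the 30, against 9.05%, and with the replicate block 3, against 0.985%. It was 0 without AdIl17rc KO library 1 (0.856% of all genes), without AdIl17rc KO library 2 (0.672%) and without WT library 1 (0.782%). Without WT library 2 it was 2 (0.709%), without WT library 3 it was 21 (0.985%), and without AdIl17rc KO library 3 it was 29 (1.2%). The counts of 21 and 29 were largely set by which library was left out, WT library 3 being the highest WT library for most of these genes. With robust empirical Bayes 2 of the 30 were higher at that unadjusted p, against 0.856%, and none after adjustment. The median log2 fold change, AdIl17rc KO over WT, was 1.86 for the 30 genes and -0.29 for all genes tested. The median of the 30 was 1.15 without AdIl17rc KO library 2 and 2.88 without AdIl17rc KO library 3. With median-of-ratios scaling, which puts the median of all genes at -0.0017, the 30 genes had a median of 1.99. All 30 had a positive log2 fold change under both scalings, against 12.4% of all genes as deposited and 49.6% when scaled. For 0 of the 30 was every AdIl17rc KO value above every WT value, against a background of 1.25%. With 3 libraries a group, an exact two-sided permutation test of a single value cannot go below 0.1.

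The fold changes of single genes were large with wide errors, and the SE below carry limma's lowered SD (for Tnnt3, 2.07 in place of 3.02). In log2 terms Tnnt3 stood at 3.38 ± 1.69 (SE; limma adjusted p = 0.224), Pvalb at 3.38 ± 1.56 (adjusted p = 0.204) and Ckm at 3.29 ± 1.62 (adjusted p = 0.221). Myh4 stood at 3.17 (SE 1.59, limma adjusted p = 0.224), and Acta1, with a level in every library, at 2.24 (SE 1.36, adjusted p = 0.287). The lowest adjusted p of the set was that of Mybpc2, 0.165 by limma, with a log2 fold change of 1.79 ± 0.63 (SE). Among the slow genes Myl2 stood at 1.94 (SE 0.70, limma adjusted p = 0.165), Tnnt1 at 1.11 (SE 0.54, adjusted p = 0.216) and Tnnc1 at 0.65 (SE 0.44, adjusted p = 0.326). Of the genes with a base level in all libraries, Myl1 stood at 0.67 (SE 0.27, limma adjusted p = 0.179), Actn2 at 0.55 (SE 0.33, adjusted p = 0.280), Mb at 0.52 (SE 0.25, adjusted p = 0.212) and Des at 0.10 (SE 0.25, adjusted p = 0.774). The other 6 genes, Myh7, Myl3, Tnni1, Ttn, Myoz2 and Cacna1s, did not reach the mean of 0.5 FPKM; fitted without that filter, their log2 fold changes ran over 0.39 to 1.05 with limma adjusted p of 0.281 to 0.351.

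These values rest on which knockout libraries are in the fit. Without AdIl17rc KO library 3, limma called 25 of the 30 higher, against a background of 0.46% of all genes. Myh4, Myl1, Actn2, Des and Mb were the 5 not called, with adjusted p of 0.0570 for Myh4, 0.0940 for Myl1, 0.280 for Actn2, 0.376 for Des and 0.338 for Mb. The knockout libraries left in that fit, 1 and 2, were the highest for each of the 36 genes. The 25 calls were thus largely set by leaving out library 3 and are a description only. With all 6 libraries rescaled to a common FPKM sum, limma called 19 of the 30, against 0.479%, and the same with Mir6236 left out of the sum called 0. Without AdIl17rc KO libraries 1 and 2, a choice made after seeing the data, 27 of the 30 log2 fold changes were negative and 3 positive, against 15.9% positive over all genes tested. As these 2 libraries were the highest for each of the 36, that turn was set by leaving them out and is a description only. Most of all genes tested were negative in that fit as well, so the negative signs are not particular to the muscle genes. In that fit the lone AdIl17rc KO library is assumed to vary like the WT group. Acta1 then stood at -1.54 and Myh4 at -0.85, while Myl1, Mybpc2 and Mb kept values above 0, at 0.017, 0.20 and 0.15. The median over the 30 genes was -0.42, and that over all genes in this fit was not computed.

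**Figure D4:**
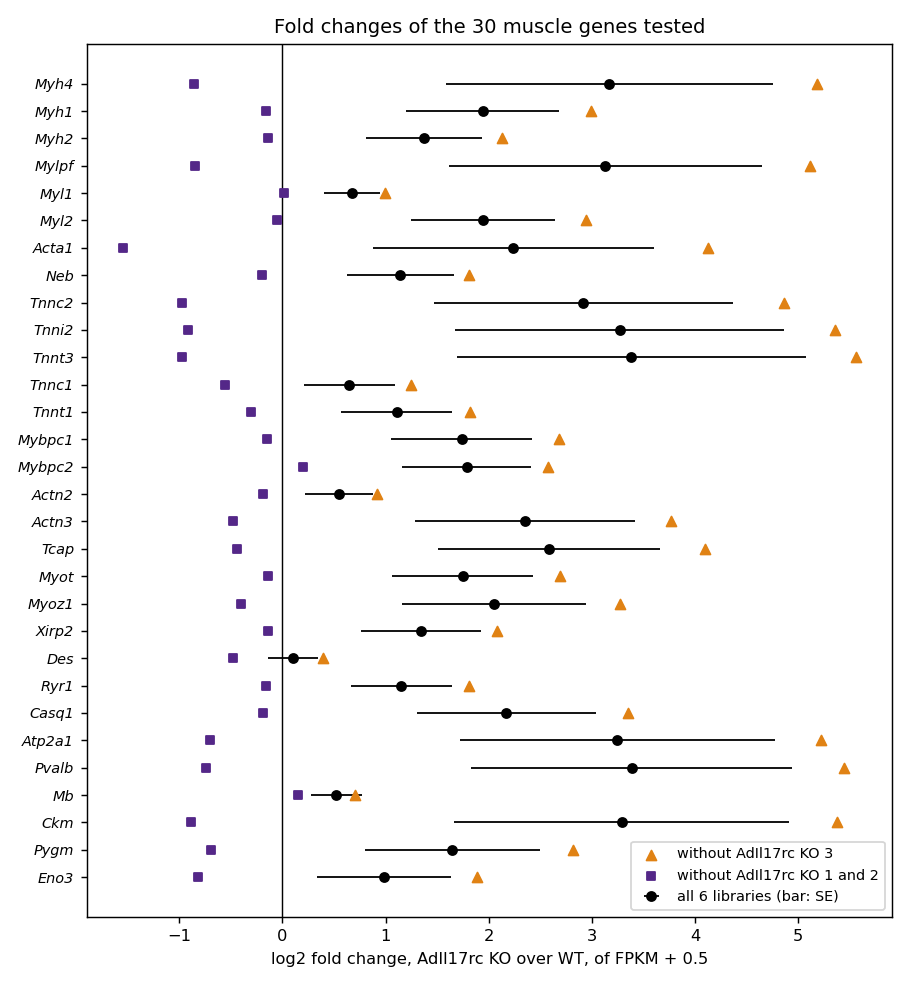
Log2 fold change (AdIl17rc KO over WT, of FPKM + 0.5) of the 30 muscle genes tested, for all 6 libraries (circles, bars 1 SE), without AdIl17rc KO library 3 (triangles) and without AdIl17rc KO libraries 1 and 2 (squares). All circles lie above 0, and 27 of the squares lie below it. In the fit of the squares, 15.9% of all genes tested were above 0.

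Part of the other muscle genes, listed by role, were high in the same libraries, and a minimum mean leaves out the low ones. Among their genes with a mean of at least 0.5 FPKM, AdIl17rc KO libraries 1 and 2 were the highest for 12 of 20 other sarcomere and Z-disc genes, 5 of 12 genes of excitation-contraction coupling, 4 of 6 atrophy and stress genes, 4 of 18 muscle energy genes and 1 of 4 myogenic transcription factor and satellite cell genes, against the 1.59% of all genes tested. With no minimum mean it was 27 of 42, 20 of 32, 7 of 13, 9 of 23 and 4 of 13 in the same order of lists, and the share of all genes was not computed. Low genes such as Csrp3, at 0 in the other 4 libraries, reached the mean only through AdIl17rc KO libraries 1 and 2. These counts and the 3-fold count below are therefore descriptions only. Limma called 0 genes of these lists, of which 60 were tested. Tpm1, a tropomyosin of fast muscle and many other cells, was 47.7, 61.5 and 24.1 FPKM in AdIl17rc KO libraries, against 34.8, 32.5 and 33.1 FPKM in WT libraries. Atp2a2, the calcium pump of slow muscle, heart and most other cells, was 89.9, 107 and 91.0 FPKM in AdIl17rc KO libraries, against 134, 99.5 and 106 FPKM in WT libraries. Trim63, the ubiquitin ligase MuRF1 of muscle wasting, was 2.66, 5.31 and 0.0444 FPKM in AdIl17rc KO libraries, against 0.195, 0.0279 and 0.494 FPKM in WT libraries. Cox8b, a cytochrome oxidase subunit of muscle and brown fat and the highest of the energy genes, was 2957, 2439 and 2564 FPKM in AdIl17rc KO libraries, against 2250, 2781 and 2392 FPKM in WT libraries. Mef2d, a muscle transcription factor found in many cells, was 18.2, 16.1 and 15.2 FPKM in AdIl17rc KO libraries, against 33.2, 21.7 and 20.6 FPKM in WT libraries. Atp2a2, Cox8b and Mef2d did not follow the order of libraries that Trim63 shared with most fast sarcomere genes. Tested genes with AdIl17rc KO libraries 1 and 2 above 3 times each of the other 4 numbered 44, or 0.405% of all genes tested. Of those 44, 25 belong to the 36, 14 to the other muscle lists and 5 to neither, the 5 being Eef1a2, Abra, Apobec2, Rtn2 and Snord1b, named after their values were seen. Eef1a2, a translation factor of muscle and neurons, was 2.29, 3.51 and 0.0135 FPKM in AdIl17rc KO libraries, against 0.0148, 0 and 0.273 FPKM in WT libraries.

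Markers of neighbouring cell types were read in the same libraries. The 15 skeletal muscle markers summed to 340, 599 and 2.22 FPKM in AdIl17rc KO libraries, against 3.64, 2.85 and 44.8 FPKM in WT libraries. All 15 are themselves genes of the muscle set described above. Their order of libraries was therefore fixed by that choice, and their sum is a description and not a separate check. The 8 heart markers summed to 0.117, 0.184 and 0.0509 FPKM in AdIl17rc KO libraries, against 0.208, 0.181 and 0.170 FPKM in WT libraries, with Nppa and Myl7 listed at 0 in all 6. The 10 smooth muscle and pericyte markers summed to 88.5, 67.4 and 57.1 FPKM in AdIl17rc KO libraries, against 111, 90.3 and 92.9 FPKM in WT libraries. The smooth muscle and pericyte sum thus did not share the order of libraries of the skeletal muscle genes, though 1 of its 10 markers, Cnn1, was highest in AdIl17rc KO libraries 1 and 2. No heart marker reached a mean of 0.5 FPKM, so the order of their sums cannot be read. Among them Myh6 was highest in AdIl17rc KO libraries 1 and 2, at 0.0724 and 0.0423 FPKM. The 5 satellite and precursor markers summed to 0.0610, 0.0795 and 0 FPKM in AdIl17rc KO libraries and were all listed at 0 in WT libraries, with Pax7 at 0 in all 6. The 13 brown adipocyte markers summed to 17224, 15222 and 16429 FPKM in AdIl17rc KO libraries, against 17303, 14208 and 14693 FPKM in WT libraries. AdIl17rc KO libraries 1 and 2 were the highest for 2 of these 13, Ucp1 and Dio2, against 1.59% of all genes tested. Dio2, named after its values were seen, was 267, 315 and 224 FPKM in AdIl17rc KO libraries, against 210, 231 and 191 FPKM in WT libraries. Skin keratins Krt5 and Krt14 were listed at 0 in all 6 libraries, and no nerve, Schwann cell or white adipocyte list had more than 1 gene highest in AdIl17rc KO libraries 1 and 2. The part that muscle tissue carried with the fat may have in the muscle gene levels was not tested.

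**Figure D5:**
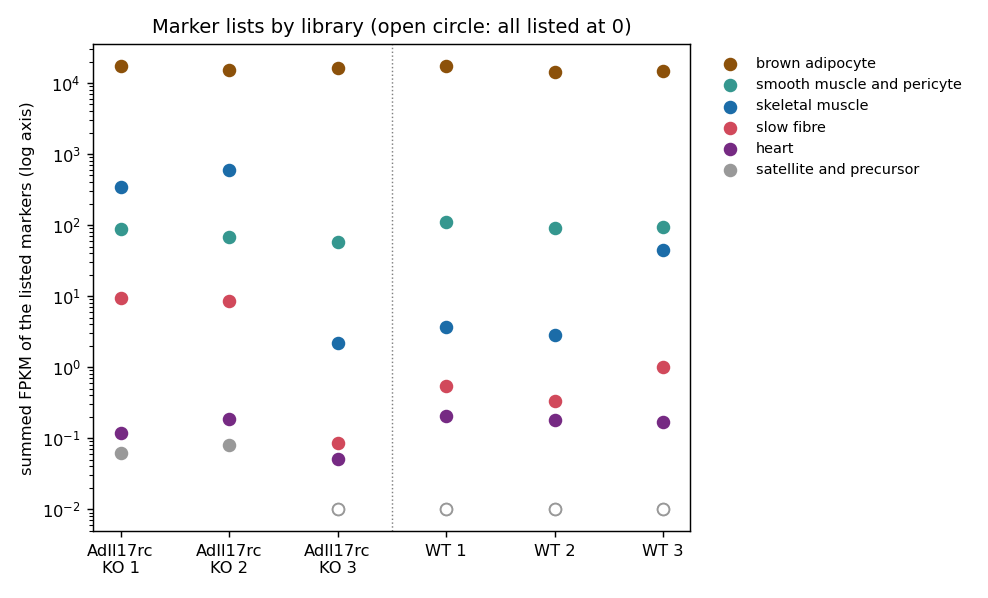
Summed FPKM (log axis) of 6 marker lists in each AdIl17rc KO and WT library, 1 circle per list and library, with open circles where every listed gene is at 0. Skeletal muscle markers run over 2.22 to 599 FPKM, while brown adipocyte and smooth muscle markers stay within 2-fold. Every skeletal muscle and slow fibre marker belongs to the muscle gene set itself, so these markers are not a separate check on it.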

How the data were processed

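PolyA RNA of brown adipose tissue was sequenced in 3 AdIl17rc KO and 3 WT libraries, and groups and numbers are those of the sample titles. The deposited table calls its values counts, but they are not whole numbers and were read as FPKM per gene. That reading rests on low values multiplied by transcript length lying near whole fragments, which was not formally tested. Per the submitters' processing notes the authors used STAR 2.5.1b, Cufflinks 2.2.1, DESeq2 1.10.1 and the mm9 build. Of 24043 rows, 27 carry a date in place of a symbol and were left out. Depth per library, 30.5 to 36.0 megafragments, was roughly estimated from low FPKM values and transcript lengths, inside a preset window that bounds the outcome. Genes were tested with limma 3.58.1 in R 4.3.3, with trended empirical Bayes, on log2(FPKM + 0.5) at a mean of at least 0.5 FPKM, a scale that understates changes of low genes, and the calling was tested on simulated data. FPKM values are not counts, so no count test was used. Same-numbered libraries were not treated as pairs. The muscle genes and all other lists were chosen with earlier results of these data known. Named genes are every one of the 36, of each other list the called genes or, with none called, up to 4 of those with the highest mean, and Il17rc, Ucp1 and Adipoq. Promoter sequences are RefSeq's on GRCm38.p6. Shared 50-base stretches and exon overlaps were computed from GENCODE M21 transcripts on GRCm38, another build than that of the table, so no position on the table's own build is given.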

Additional observations from a re-analysis of the deposited data

How the results depend on the processing

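All 30 tested muscle genes kept a positive log2 fold change, AdIl17rc KO over WT, under pseudocounts of 0.1 and 1, the stricter filter (24 genes), no filter, the replicate block, robust empirical Bayes and each of 3 rescalings. The count called higher was 0 under these, except that rescaling to a common FPKM sum gave 19 (background 0.479%). With Mir6236 left out of that sum it was 0, and limma's prior degrees of freedom were 3.32, against 28.1 with Mir6236 in the sum. Leaving out 1 library in turn, it ran over 0 to 25, with 25 without AdIl17rc KO library 3. That count of 25 was largely set by which library was left out. Whether shared numbers pair the libraries was not settled. Deviations from the group mean correlated at 0.10, -0.12 and -0.08 between same-numbered libraries, a measure blind to a shift of a whole library. With the replicate block, the median SD around the fit over all genes was 0.147, against 0.226 without it. Genes called in all numbered 2 in the test as reported, 1 without a filter, 1 with the replicate block, 263 with a common sum, 14 with robust empirical Bayes, 9 without AdIl17rc KO libraries 1 and 2, and 1 to 61 leaving out 1 library in turn; the cause was not tested. The common sum without Mir6236, robust empirical Bayes and the fit without both knockout libraries were chosen after seeing the data.

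Des stood at -0.030 without AdIl17rc KO library 1 and at -0.057 without library 2, its range leaving out 1 library in turn being -0.057 to 0.39. Without both, log2 fold changes were -0.85 for Myh4, -0.16 for Myh1, -0.14 for Myh2, -0.85 for Mylpf, -0.054 for Myl2, -1.54 for Acta1, -0.20 for Neb, -0.98 for Tnnc2, -0.91 for Tnni2, -0.98 for Tnnt3, -0.55 for Tnnc1, -0.31 for Tnnt1, -0.15 for Mybpc1, -0.18 for Actn2, -0.47 for Actn3, -0.44 for Tcap, -0.14 for Myot, -0.40 for Myoz1, -0.14 for Xirp2, -0.48 for Des, -0.16 for Ryr1, -0.18 for Casq1, -0.70 for Atp2a1, -0.74 for Pvalb, -0.88 for Ckm, -0.70 for Pygm and -0.82 for Eno3. Without both libraries, 15.9% of all genes tested had a positive log2 fold change, so most other genes were negative too. Values under about 0.1 FPKM rest on few fragments.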

Other observations

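A non-coding row stood out in the libraries that were rich in muscle transcripts. Snord1b, a small nucleolar RNA gene named after its values were seen, was 311, 293 and 0 FPKM in AdIl17rc KO libraries and was listed at 0 in all 3 WT libraries. Among muscle genes outside the set, also named after their values were seen, Csrp3, a Z-disc stress sensor, was 1.26, 2.38 and 0 FPKM in AdIl17rc KO libraries and listed at 0 in all 3 WT libraries. Cox6a2, the muscle isoform of a cytochrome oxidase subunit, was 3.78, 4.65 and 0.0550 FPKM in AdIl17rc KO libraries, against 0.121, 0.0519 and 0 FPKM in WT libraries. Pgam2, the muscle phosphoglycerate mutase, was 4.02, 6.61 and 0.0711 FPKM in AdIl17rc KO libraries, against 0, 0 and 0.504 FPKM in WT libraries.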
